A study of Mus musculus with 16 samples.

Results

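In livers of male and of female mice, 773 sites of open chromatin that were already present in vehicle-treated livers gave a lower DNase-seq signal 27 h after TCPOBOP. They were found among 23741 autosomal regions that held a called peak in all 8 lists of the 27 h pools, out of 61240 regions made by merging the peaks of all 16 deposited lists, and make up 3.26% of the 23741. The number depends on the centring described below: without it 366 regions met the rule, and the centring moved the second male TCPOBOP pool at 27 h by 0.43 on the log2 scale, against 0.05 to 0.13 in the other pools of that experiment. The members were chosen by their 27 h values: a region belonged to the set where, in males and in females at 27 h, both TCPOBOP pools lay below both vehicle pools and the mean difference was -0.4 or lower on the log2 scale. The value compared was the highest summit pileup of the region in a pool, that is the number of extended tags over the summit, per 1000000 tags of the library and centred on the median of the 18443 regions with a peak in all 16 lists. It is given below as scaled pileup, in tags per 1000000. The 27 h values are therefore only described, and the limma counts given for them below are no test of the sites. The 3 h pools were not used for the choice, and the sites were tested there. By the same rule turned round, 995 regions (4.19%) were more open.

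DNase I cuts DNA preferentially where nucleosomes are absent or displaced, and the sites it exposes are mostly promoters and enhancers. TCPOBOP is a synthetic agonist of the mouse constitutive androstane receptor (CAR, Nr1i3), a nuclear receptor that on activation enters the hepatocyte nucleus and switches on genes of drug metabolism. CAR activation in mouse liver is also known for repressing genes of glucose and lipid metabolism and for making the liver grow, and loss of accessibility is a usual counterpart of reduced enhancer activity.

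All mice were of the outbred CD-1 strain and 7 weeks old and were injected intraperitoneally in the morning with TCPOBOP at 3 mg/kg or with vehicle, corn oil holding 1% DMSO. The 8 groups were TCPOBOP and vehicle livers of males at 3 h, of males at 27 h, of females at 3 h and of females at 27 h, with 2 pools each, and a pool joined DNase-released fragments from 3 to 5 mice. Each combination of sex and time has its own experiment code, so differences between sexes or times cannot be told apart from differences between experiments. Whole-liver nuclei were used, so fewer cells of a type and less open chromatin per cell cannot be told apart. The lists carry mm9 coordinates without gene names, and no mm9 annotation or genome was used here, so the sites are given by position, without nearest gene or sequence, and the tissue label was not checked against marker genes. Libraries held 15679689 to 43618254 tags. TCPOBOP libraries were deeper than their vehicle libraries at 3 h, with 18543171 to 25383943 against 15679689 to 17206999 tags in males and 19948773 and 20704920 against 16216180 and 16948011 tags in females. At 27 h male TCPOBOP libraries held 28633652 and 36187819 tags, against 35822318 and 43618254 in vehicle libraries. Female TCPOBOP libraries at 27 h held 25065722 and 30340709 tags, against 28624325 and 18044366. The part of depth in the 27 h differences was not tested.

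The sites were of moderate strength and spread over the genome. In vehicle livers at 3 h their median rank was percentile 40.6 of the 23741 regions in males and 45.3 in females, over the 659 sites with a peak in both vehicle pools in each sex. Their median merged width was 848 bp, against 968 bp for the regions that were more open and 948 bp for all 23741. Every autosome held some of them, with the lowest share on chromosome 7 (35 of 1402 regions, 2.50%) and the highest on chromosome 6 (59 of 1421, 4.15%). The weakest sites rested on few tags: the lowest summit pileup in a pool was 8 to 22 tags, and the median 29 to 93.

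At 27 h the median site had a log2 change, TCPOBOP minus vehicle, of -0.58 in males (range -1.65 to -0.40) and -0.70 in females (-2.06 to -0.40). A change of -1 or lower was found at 37 sites in males, at 132 in females and at 16 in both. The change was lower in females than in males at 517 of the 773 sites (66.9%). Between the higher TCPOBOP pool and the lower vehicle pool the median gap was 0.34 in males and 0.42 in females on the log2 scale, with a smallest gap close to 0 in each sex. Across the sites the male and female changes had a Pearson r of 0.36, against 0.58 across the 23741 regions. These are descriptions over regions of the same libraries, and the first is taken within the limits set by the rule.

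**Figure D1:**
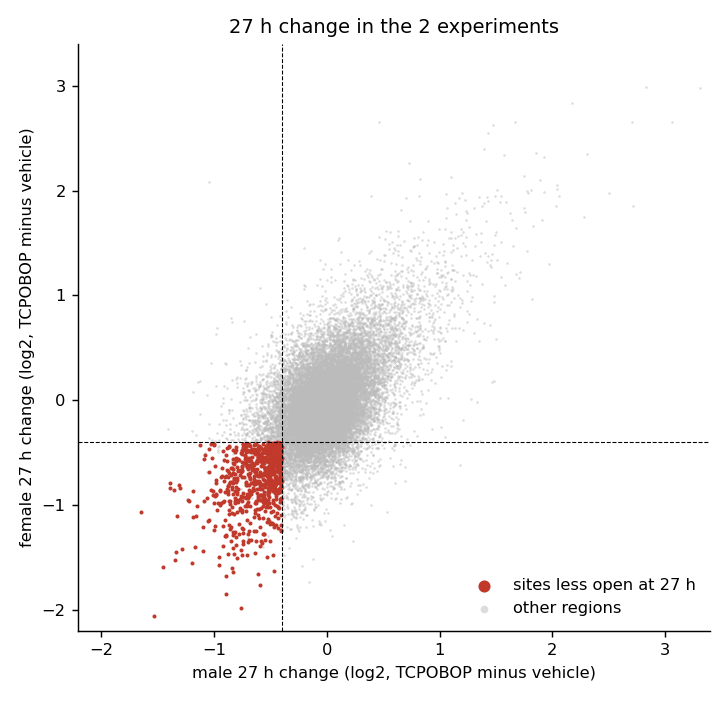
Log2 change in scaled pileup at 27 h, TCPOBOP minus vehicle, in males (horizontal) and females (vertical), 1 point per region: the 773 sites in red and the other autosomal regions with a peak in all 8 lists at 27 h in grey, with dashed lines at -0.4. The red sites fill the lower left corner by construction, and grey points there are regions whose pools overlapped in at least 1 sex.

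The limma test of each experiment, in which all 16 libraries shared the estimate of spread, called 80 of the sites lower in males at 27 h, against 0.439% of all tested regions, and 292 in females, against 2.95%, at a Benjamini-Hochberg adjusted p under 0.05. In 59 sites both experiments gave a call. Pools ordered as the rule asks, TCPOBOP below vehicle, were found in 21.8% of all tested regions in males and in 27.9% in females. The rule chose the sites by this same contrast, which by itself raises their counts over the shares of all tested regions. The counts are therefore no test of the sites, and nothing is read from them.

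The site with the lowest mean change was chr17:85049609-85050365 (757 bp). In males at 27 h its scaled pileup was 1.68 and 0.981 in TCPOBOP pools, against 4.34 and 3.15 in vehicle pools. In females it was 1.03 and 0.962 in TCPOBOP pools, against 5.36 and 3.19 in vehicle pools, so that TCPOBOP livers had 0.347 of the vehicle level in males and 0.240 in females. At 3 h the groups overlapped in both sexes, with 1.37 and 3.39 in TCPOBOP pools against 3.09 and 3.16 in vehicle pools of males, and 1.54 and 1.17 against 1.88 and 1.53 in females. Its female vehicle level was itself lower at 3 h than at 27 h, a difference that is also one between experiments.

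The strongest of the 10 lowest sites in male vehicle pools at 27 h was chr16:31651669-31652628 (960 bp). Male TCPOBOP pools at 27 h had 2.15 and 1.82, against 4.86 and 5.22 in vehicle pools. Female TCPOBOP pools had 1.95 and 1.59, against 5.11 and 5.05 in vehicle pools. At 3 h the groups overlapped, with 4.72 and 5.44 in TCPOBOP pools against 4.77 and 5.11 in vehicle pools of males, and 6.76 and 5.16 against 5.99 and 7.16 in females. The log2 differences at 3 h were 0.04 (SE 0.174, limma adjusted p = 0.954) and -0.15 (SE 0.175, adjusted p = 0.816). All 12 other pools thus lay above the 4 TCPOBOP pools of 27 h at this site.

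The sites chr8:42079220-42079984, chr17:84789291-84790041 and chr3:85354227-85355444 were lower by similar amounts in both sexes. At chr8:42079220-42079984 TCPOBOP livers had 0.366 of the vehicle level in males and 0.331 in females at 27 h. At chr17:84789291-84790041 they had 0.438 and 0.341, and at chr3:85354227-85355444 0.411 and 0.373. At 3 h the groups overlapped at all 3 in females, and in males at the last of them and at chr17:84789291-84790041.

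The female change was further from 0 than the male one at 9 of the 10 sites, all but chr8:129251914-129252681. At chr18:12016561-12017233 the female TCPOBOP pools at 27 h had 0.801 and 0.498, against 2.38 and 2.61 in vehicle pools, and the male TCPOBOP pools 1.01 and 0.900, against 1.48 and 1.75. At chr6:49115751-49116709 TCPOBOP livers had 0.278 of the vehicle level in females and 0.538 in males. At chr15:62543766-62544957 they had 0.313 in females and 0.538 in males. In each of these 3 the male pools were separated as well, as the rule requires, and whether the sexes differed was not tested.

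The site chr2:172406073-172406712 had a peak in 11 lists only. At 27 h male TCPOBOP pools had 0.773 and 0.797, against 1.99 and 1.98 in vehicle pools, and female TCPOBOP pools 0.763 and 0.697, against 2.20 and 1.80. At 3 h it was called in 1 of 2 male and both female TCPOBOP pools, with 1.17 in the male pool and 1.33 and 1.17 in the female pools, and in none of the vehicle pools. It could therefore not be tested at 3 h.

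The last of the 10, chr8:129251914-129252681 (768 bp), was low at both times. At 27 h male TCPOBOP pools had 0.807 and 0.756, against 2.71 and 2.21 in vehicle pools, and female TCPOBOP pools 1.03 and 1.10, against 2.66 and 1.86. At 3 h male TCPOBOP pools had 1.33 and 0.667, against 2.15 and 2.76 in vehicle pools, and female TCPOBOP pools 0.745 and 2.34, against 2.89 and 3.83. The groups did not overlap in any of the 4 experiments. The 3 h log2 difference was -1.37 in males (SE 0.364, limma adjusted p = 0.0778) and -1.33 in females (SE 0.358, adjusted p = 0.0706), the lowest mean 3 h change of all tested sites, and neither passed the threshold of 0.05.

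**Figure D2:**
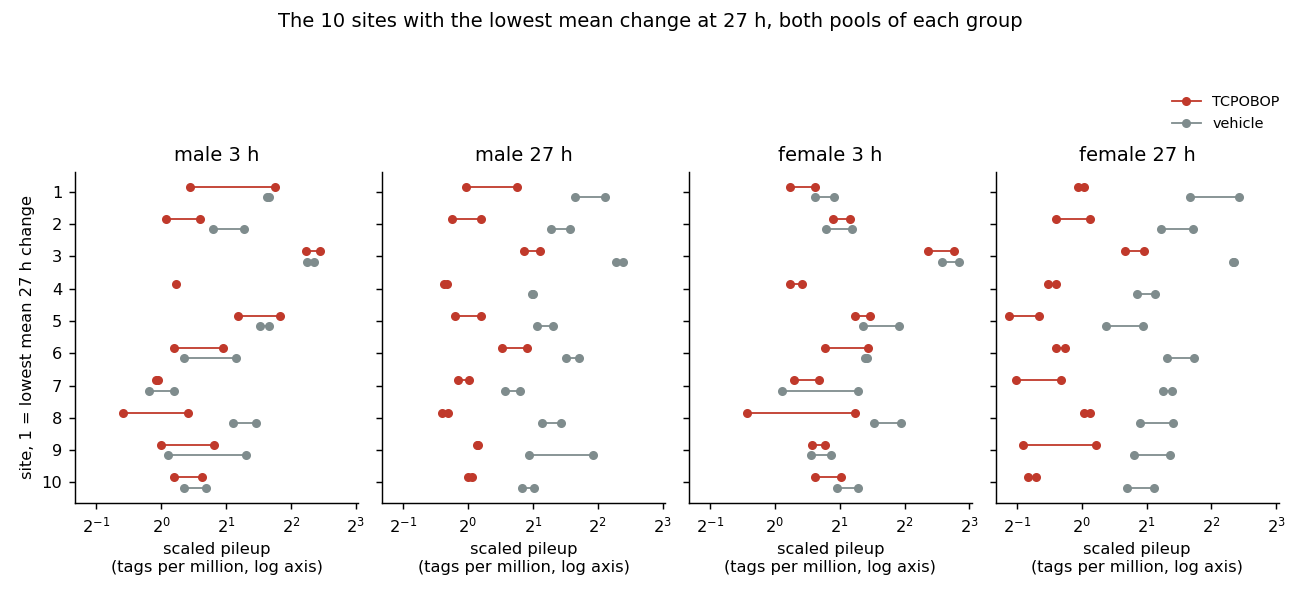
Scaled pileup (tags per 1000000, log axis) in both pools of each group for the 10 sites with the lowest mean 27 h change, numbered from 1 (chr17:85049609-85050365) to 10 (chr15:62543766-62544957), TCPOBOP in red above vehicle in grey. At 27 h all red pairs lie left of the grey ones, as the rule demands; at 3 h most pairs overlap, and site 8 (chr8:129251914-129252681) is the one separated in both sexes.

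The sites with the highest vehicle level at 27 h were chr2:26455245-26456806, chr8:96695935-96697349 and chr13:52117085-52118291. At chr2:26455245-26456806 male TCPOBOP pools had 8.57 and 8.93, against 13.8 and 13.4 in vehicle pools, and female TCPOBOP pools 5.65 and 5.31, against 10.04 and 7.67. At chr8:96695935-96697349 TCPOBOP livers had 0.536 of the vehicle level in males and 0.406 in females. At chr13:52117085-52118291 they had 0.681 and 0.575. None of these 3 strong sites was among the 10 lowest.

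The threshold of -0.4 cut a continuous range. Just inside it were chr12:21307095-21308584, chr1:72916790-72918106 and chr16:73647414-73648222, each with a male change of -0.40 and a female change of -0.77, -0.55 and -0.45 in that order. Just outside were chr8:129244233-129245068, with -0.68 in males and -0.40 in females, and chr11:105915034-105915908 and chr7:75430361-75431264, with -0.40 in males and -0.73 and -0.68 in females. All 6 had pools that did not overlap in either sex. The first of the outside regions lies within 10 kb of chr8:129251914-129252681.

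Levels over all 8 groups were compared at the 589 sites with a peak in all 16 lists. In males the median scaled pileup at 3 h was 1.93 in TCPOBOP and 2.15 in vehicle livers, and at 27 h 1.51 in TCPOBOP and 2.34 in vehicle livers. In females it was 2.07 and 2.39 at 3 h, and 1.30 and 2.21 at 27 h. The corresponding medians of the 18114 regions of the same kind lay between 2.55 and 2.57 in all 8 groups, as the centring fixes.

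In the median over these sites the 27 h vehicle livers were near the 3 h vehicle livers, while single sites went both ways. The median log2 difference of vehicle at 27 h from vehicle at 3 h was 0.08 in males and -0.04 in females, and that of TCPOBOP at 27 h from vehicle at 3 h was -0.56 and -0.82. Both 27 h vehicle pools lay above both 3 h vehicle pools at 195 sites in males (33.1%) and 183 in females (31.1%), and below both at 112 (19.02%) and 223 (37.9%). Both 27 h TCPOBOP pools lay below all 4 vehicle pools of their sex at 417 sites in males (70.8%, against 11.7% of the 18114 regions) and at 449 in females (76.2%, against 15.5%). All 4 TCPOBOP pools of 27 h lay below the other 12 pools at 131 sites (22.2%, against 213 regions or 1.18%). The rule fixed part of these counts, since it used the 27 h vehicle pools, and the 3 h pools belong to other experiments.

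Female livers at 27 h after TCPOBOP had the lowest mean of the 8 groups at 334 of the 589 sites, and male livers at 27 h after TCPOBOP at 148. The 3 h TCPOBOP group was lowest at 46 sites in females and 31 in males, and the 3 h vehicle group at 19 and 11. The remaining groups, vehicle at 27 h, were lowest at none, which the rule fixes.

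**Figure D3:**
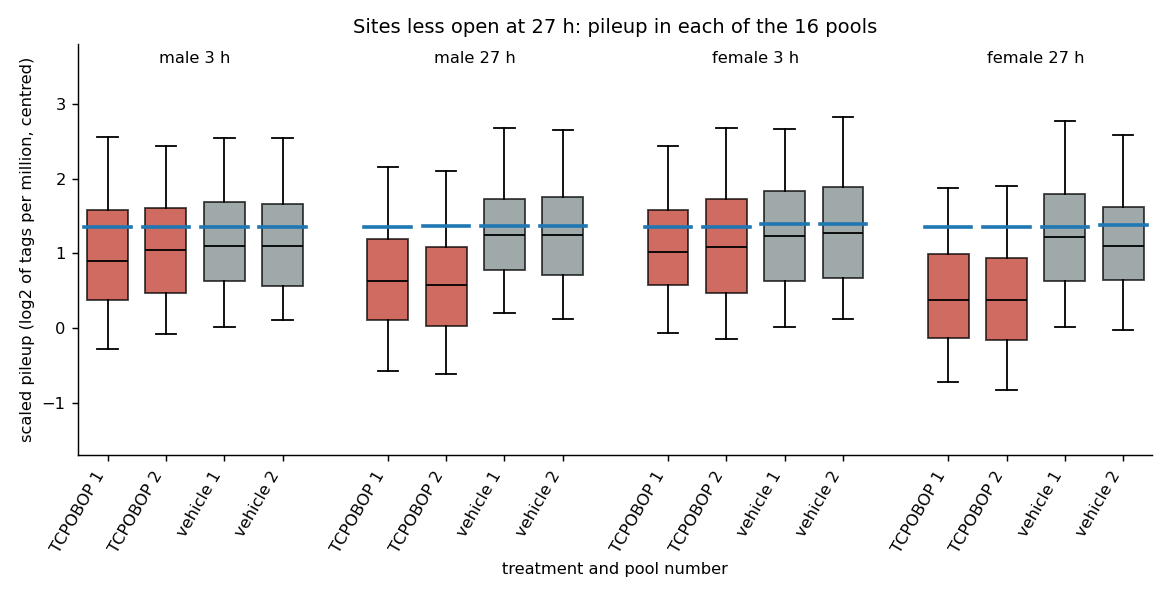
Scaled pileup (log2 of tags per 1000000, centred) of the 589 sites with a peak in all 16 lists, by pool; boxes show the quartiles and median, whiskers the range from the 5th to the 95th percentile, TCPOBOP in red and vehicle in grey, and blue bars the median of the 18114 other and member regions of the same kind. The 4 TCPOBOP pools of 27 h have the lowest medians, 1.29 to 1.55 tags per 1000000, and those of 3 h lie between them and the vehicle pools.

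At 3 h nearly all sites were already called as peaks. A peak was found in all 8 lists of 3 h at 589 of the 773 sites (76.2%, against 76.3% of the 23741 regions) and in none of them at 4. In males 12 sites held a peak in both TCPOBOP and neither vehicle pool, and none the reverse. In females 9 held a peak in both TCPOBOP and neither vehicle pool, and 6 the reverse. Over the 23741 regions the male TCPOBOP lists held a peak at 96.2% and 91.9%, against 89.3% and 87.7% in the vehicle lists. In females it was 93.5% and 91.5%, against 89.1% and 89.9%. The share of the 23741 regions with a peak in 1 treatment only is not given here, so nothing about the sites is read from these counts. The TCPOBOP libraries were the deeper ones at 3 h, and the part of depth in these counts was not tested.

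The 3 h pools addressed whether the lower signal had begun by then. In males 635 sites had a peak in all 4 pools and were tested with limma. None was called lower (0.113% of all tested regions were) and none higher (0.642%), at a Benjamini-Hochberg adjusted p under 0.05, while 69 were lower and 12 higher at an unadjusted p under 0.05, which is 10.9% and 1.89%, against 7.08% and 6.19% of all tested regions. In females 4 of 633 tested sites were called lower, against 0.0789% of all tested regions, and 1 was called higher, against 1.04%. At an unadjusted p under 0.05, 88 sites were lower and 15 higher in females, which is 13.9% and 2.37%, against 5.27% and 5.72%. The counts of calls were small and moved with single libraries. Shares of all tested regions called without a pool are not given here, so nothing about the sites is read from the following counts. Leaving out TCPOBOP pool 2 gave 3 sites called lower in males and 7 in females. Leaving out the first vehicle pool gave 2 in males and 0 in females, and leaving out the second gave 1 in each. Calls for a higher signal in females numbered 3 without TCPOBOP pool 2 and 0 without vehicle pool 1, and in males 1 without vehicle pool 1.

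The median log2 change was -0.15 in males, against -0.03 over all tested regions, and -0.19 in females, against -0.03. The sign of the male median depended on the centring: without it the median was 0.016 over the sites of the smaller set then chosen, against 0.15 over all tested regions, and the female median was -0.20, against -0.02. The change was below 0 at 427 sites in males (67.2%, against 54.3%) and at 450 in females (71.1%, against 54.7%). It was -0.4 or lower at 123 sites in males (19.4%, against 11.7%) and 143 in females (22.6%, against 8.74%).

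Both TCPOBOP pools lay below both vehicle pools at 185 sites in males, which is 29.1%, against 23.0% of all tested regions, and above them at 48, which is 7.56%, against 17.7%. In females they lay below at 212 sites, 33.5%, against 21.1%, and above at 50, 7.90%, against 17.0%. In both sexes together they lay below at 58 of the 589 sites tested in both (9.85%, against 4.48%) and above at 4 (0.679%, against 4.45%). Without centring, when 366 sites were in the set, the pools lay below at 53 sites in males and 86 in females. The share of all tested regions without centring is not given here. These counts therefore do not show whether the sites still differed from other regions.

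**Figure D4:**
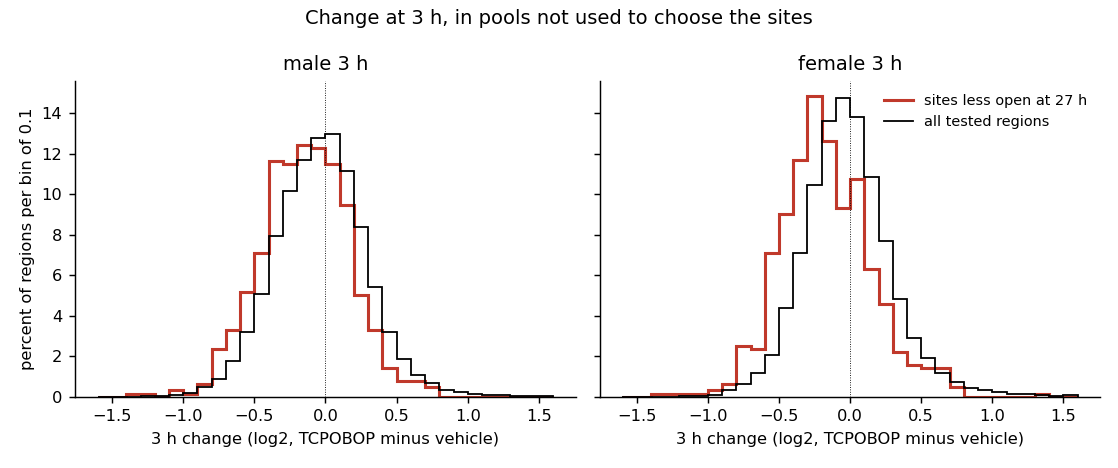
Log2 change at 3 h, TCPOBOP minus vehicle, in males (left) and females (right), as the percent of regions in each bin of 0.1 for the tested sites (red, 635 in males and 633 in females) and all tested regions (black); changes outside the plotted range are counted in the end bins. The red outline lies left of the black one in both panels, with medians of -0.15 and -0.19 against -0.03 and -0.03.

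The 3 h medians varied with the strength of the regions. All tested regions were divided into 4 quartiles by mean level over the 4 pools. In males the median changes of the sites, from the weakest to the strongest quartile, were -0.21, -0.20, -0.08 and -0.03, against -0.16, -0.05, -0.01 and 0.04 for all regions. In females the sites had -0.07, -0.18, -0.24 and -0.22, against -0.03, -0.01, -0.03 and -0.05 for all regions. The sites were below all regions of their own quartile in each of the 8 pairs, with the smallest distance in the weakest quartile of each sex. The part of depth in this was not tested.

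Sites called lower in females at 3 h numbered 4. At chr9:15277359-15278136 female TCPOBOP pools had 3.35 and 3.09, against 5.78 and 6.13 in vehicle pools, a log2 difference of -0.89 (SE 0.189, limma adjusted p = 0.0132). Male TCPOBOP pools had 3.02 and 2.89 there, against 3.83 and 3.77 in vehicle pools, a difference of -0.36 (SE 0.188, adjusted p = 0.413). The groups did not overlap in either sex, and the male difference did not pass the test.

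At chr6:24297780-24299138 female TCPOBOP pools at 3 h had 1.06 and 1.60, against 2.82 and 3.58 in vehicle pools, a difference of -1.29 (SE 0.276, limma adjusted p = 0.0138). Male pools overlapped, with 3.56 and 2.17 in TCPOBOP pools against 2.96 and 2.76 in vehicle pools. At chr11:22169173-22170082 the female pools had 1.38 and 2.88 after TCPOBOP, against 3.90 and 4.47 after vehicle, a difference of -1.07 (SE 0.266, limma adjusted p = 0.0442). Male pools overlapped there as well, with 3.85 and 3.11 against 4.04 and 3.70.

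At chr4:41577092-41577807 female TCPOBOP pools at 3 h had 1.06 and 0.692, against 1.95 and 1.85 in vehicle pools, a difference of -1.15 (SE 0.290, limma adjusted p = 0.0466). Male TCPOBOP pools had 0.684 and 1.33, against 1.21 and 1.55 in vehicle pools, a difference of -0.52 (SE 0.292, adjusted p = 0.457), and overlapped. A second site of the set, chr4:41583973-41585804, lies within 10 kb of it and was lower at both times, with log2 changes of -0.47 and -0.55 at 3 h and -0.84 and -1.02 at 27 h in males and females. Neither of its 3 h changes passed the limma test (adjusted p = 0.296 and 0.233).

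The site called higher was chr11:100652221-100653312. In females at 3 h TCPOBOP pools had 1.76 and 2.24, against 0.673 and 0.958 in vehicle pools, a log2 difference of 1.30 (SE 0.275, limma adjusted p = 0.0124). At 27 h the female TCPOBOP pools had 1.18 and 1.10, against 1.55 and 1.51 in vehicle pools. Its 27 h change, -0.43 in each sex, was close to the threshold, and 1 male vehicle pool had no peak there at 3 h.

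All 5 calls depended on single pools, by the limma adjusted p, where an arm left with 1 pool was assumed to vary like the others. All but that at chr9:15277359-15278136 also depended on the way pileup was taken. With summed pileups that site kept its call (limma adjusted p = 0.0421). At chr9:15277359-15278136 the adjusted p was 0.0885 to 0.157 without TCPOBOP pool 2 or either vehicle pool, and 0.0602 without centring. At chr6:24297780-24299138 it was 0.0825 to 0.259 without TCPOBOP pool 1 or either vehicle pool, and 0.342 with summed pileups, where the change was -0.87. At chr11:22169173-22170082 the change was -0.54 without TCPOBOP pool 1 (limma adjusted p = 0.458), which had the lower of the 2 TCPOBOP values, and -1.59 without pool 2. Its call was also lost without either vehicle pool (0.234 and 0.383), with summed pileups (0.119), with peaks of −log10 q of 5 or more (0.0509), with the spread of its own experiment (0.0711) and without a mean trend (0.122).

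At chr4:41577092-41577807 the call was lost without TCPOBOP pool 2 or either vehicle pool, with limma adjusted p = 0.251 to 0.318. It was also lost with centring on the 5000 strongest regions, summed pileups, the spread of its own experiment or no mean trend (0.0625 to 0.0995). At chr11:100652221-100653312 it was lost without TCPOBOP pool 2 (limma adjusted p = 0.115), without vehicle pool 1 (0.277) and with summed pileups (0.375), where the change was 0.87.

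The female difference was not called different from the male one at any site. Of the 589 sites tested in both sexes, limma called a sex difference in the 3 h change at 0 (0.00500% of all tested regions were called, 1 region). At an unadjusted p under 0.05 there were 56. The share of all tested regions at that level is not given here, so nothing is read from the 56. Across these sites the male and female 3 h changes had a Pearson r of 0.079, against 0.18 over all 19981 regions tested in both. The 3 h change had a Pearson r with the 27 h change of 0.18 in males and 0.036 in females across the tested sites, which share libraries only within a time. The rule cut the 27 h change off at -0.4, which limits the range behind these values.

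At 22 of the 589 sites the 3 h pools met the whole rule, both pools below and a difference of -0.4 or lower in each sex (3.74%, against 0.756% of all regions tested in both). Beside chr8:129251914-129252681 they included chr8:10865300-10866782, the third lowest by mean 3 h change. There male TCPOBOP pools at 3 h had 1.87 and 1.39, against 2.42 and 3.09 in vehicle pools, and female TCPOBOP pools 1.12 and 1.17, against 2.02 and 1.73. Its log2 differences were -0.76 and -0.71 at 3 h, against only -0.41 and -0.40 at 27 h, and the 3 h differences did not pass the limma test (adjusted p = 0.128 and 0.161). In males 45 of the tested sites, and in females 37, were at least as low at 3 h as at 27 h (7.09% and 5.85%). At the other end, 337 sites in males (53.1%) and 314 in females (49.6%) had a 3 h change closer to 0 than 0.25 of the 27 h change, or above 0. The rule chose the sites by a low 27 h change, which by itself makes the 3 h change smaller beside it. Shares of all regions for these comparisons of the times are not given here, so nothing about timing is read from them.

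Among the sites tested in both sexes, 3 had the highest mean 3 h change. At chr17:6020630-6021541 female TCPOBOP pools at 3 h had 3.78 and 2.77, against 1.55 and 2.30 in vehicle pools, and at 27 h 2.90 and 1.10 against 4.03 and 4.01. At chr10:79359703-79360874 the TCPOBOP pools at 3 h had 1.76 and 1.61, against 1.14 and 1.14 in vehicle pools of males, and 1.76 and 0.958 against 0.807 and 0.767 in females. At chr8:125219221-125219909 they had 1.62 and 1.50, against 1.35 and 1.35, in males and 1.44 and 2.24, against 1.35 and 0.958, in females. None of these 3 h differences was called by limma (adjusted p = 0.225 to 0.774).

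The sites lay near one another more often than other open regions lay near them. Another site of the set was within 50000 bp of 186 of the 773 sites (24.1%), while 1859 other regions (8.46%) and 26 of the 995 more open regions (2.61%) lay that close to a site. Of the more open regions 399 (40.1%) were within 50000 bp of another of their kind. These are descriptions, since all regions were measured in the same pools, and why the sites lay near one another was not tested.

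Taken with gaps of up to 50000 bp, the sites formed 667 runs. Of these 587 were single sites, 59 held 2, 16 held 3 and 5 held 4. None of the 5 long runs held a more open region, but they held few regions beyond their sites, so nothing is read from this. The run chr10:86334844-86349831 held 4 sites, which were all of its regions with a peak in every 27 h list. So did chr12:111462292-111483326 and chr18:11986897-12017233, and chr6:94449968-94551705 held 4 of 5 and chr11:100608141-100684357 4 of 6.

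In the chromosome 18 run, which ends with chr18:12016561-12017233, the female changes at 27 h were -0.98, -1.22, -1.66 and -1.98 from the lower to the higher coordinate, and the male ones -0.47, -0.43, -0.61 and -0.76. In the chromosome 10 run the 27 h changes were -0.95, -0.62, -0.84 and -0.66 in males and -1.57, -0.78, -0.64 and -0.54 in females. In the chromosome 12 run they were -0.54, -0.83, -0.56 and -0.55 in males and -0.65, -1.41, -0.88 and -1.28 in females. These are values the rule used, and differences within a run or between the sexes were not tested.

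At 3 h values of single sites in a run went in either direction, without a test between them. In the chromosome 10 run the first site, chr10:86334844-86335863, had 1.86 and 2.08 in female TCPOBOP pools at 3 h, against 3.70 and 3.71 in vehicle pools, a difference of -0.91 (SE 0.266, limma adjusted p = 0.113), while chr10:86341252-86342551 and chr10:86342907-86343681 had -0.22 and -0.01 (adjusted p = 0.770 and 0.996). In the chromosome 6 run chr6:94449968-94450667 was lower in male pools, 0.828 and 0.889 after TCPOBOP against 1.48 and 1.34 after vehicle, and higher in female pools, 1.38 and 1.28 against 0.942 and 0.894 (limma adjusted p = 0.215 and 0.441). The site called higher in females, chr11:100652221-100653312, belongs to the chromosome 11 run, whose other 3 sites had female 3 h changes of -0.35, -0.38 and -0.14.

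Other regions close to a site were also lower on the whole at 27 h. The 444 regions outside the set but within 10 kb of a site had a median log2 change at 27 h of -0.14 in males, with 73.4% below 0, and -0.23 in females, with 81.5% below 0. At 10 to 50 kb the medians were -0.07 and -0.14. Beyond 1000 kb they were 0.01 and -0.00246, with 48.5% and 50.2% below 0. These 27 h values come from the same pools that chose the sites. Among the regions within 10 kb is chr8:129244233-129245068, which lies just outside the threshold of the rule. At 3 h the regions within 10 kb had a median of -0.03 in males and -0.14 in females, against -0.03 and -0.01 beyond 1000 kb. The changes at 3 h were below 0 at 55.8% and 69.3% of the near regions, against 53.4% and 52.1% of the far ones. In the 3 h pools, which the rule did not use, the median was thus lower near the sites in females and about equal near and far in males.

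**Figure D5:**
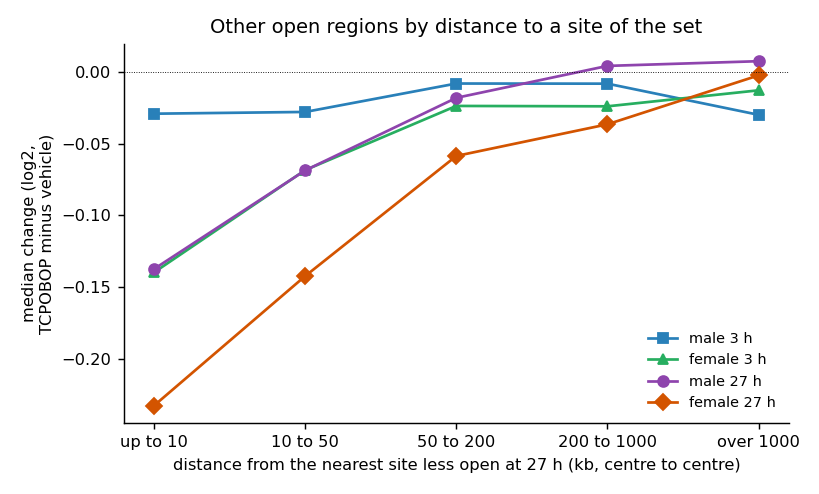
Median log2 change, TCPOBOP minus vehicle, of regions outside the set against their distance in kb from the nearest site (centre to centre), for the 4 experiments. The 27 h medians are lowest within 10 kb, -0.14 in males and -0.23 in females, and approach 0 with distance; at 3 h the female median does so too and the male one stays between -0.03 and -0.01.

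The called peaks at the sites were narrower in TCPOBOP livers at 27 h and not at 3 h. The median called width at the sites was 588.5 bp in TCPOBOP and 669.5 bp in vehicle livers of males at 27 h, and 524 and 616.5 bp in females, while over all 23741 regions it was 706.5 and 719 bp in males and 721.5 and 644 bp in females. At 3 h the sites had 514 and 484.5 bp in males and 508 and 489.5 bp in females. The widths of all 23741 regions at 3 h are not given here, so nothing is read from the difference between the times. Library depth differed between treatments at both times, and its part in the widths was not tested. The authors' fold enrichment over local background, which is relative to each library, had medians at the sites of 6.03 in TCPOBOP and 7.27 in vehicle livers of males at 27 h and 4.97 and 6.16 in females, against 7.45 and 7.16, and 6.40 and 6.15, over all 23741 regions. Width and fold are taken from the same peaks as the pileup and are not independent of the rule. The summits kept their place: the median distance between summits in TCPOBOP and vehicle pools at 27 h was 34 bp in males and 46 bp in females, against 41 and 47 bp between the TCPOBOP pools of a group and 29 and 43 bp between the vehicle pools.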

How the data were processed

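DNase-seq peak lists of 16 liver pools, 2 per group, were used. The authors aligned reads with Bowtie to mm9, per the submitters' processing notes, and called peaks in each pool with MACS 2.1.0.20150731, without a control library and keeping duplicates, as the file headers record. Neither the aligner's version nor any later filter is given in the sources used here. Summit pileup was deposited as an unscaled signal and fold enrichment as a ratio to local background; −log10 p-values and −log10 q-values were deposited beside them, per the file headers. One list headed with the female 3 h code was used as female 27 h, as its command line and peak names say.

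Overlapping peaks were merged in Python 3.11.15 (pandas 2.3.3, numpy 2.4.6), and TCPOBOP was compared with vehicle in each experiment by limma 3.58.1 (R 4.3.3) with a mean trend, over all regions with a peak in all 4 pools of the experiment, Benjamini-Hochberg adjusted; the fit was checked on simulated data. The p-values measure only the spread between 2 pools a group, and the labels do not say that equal pool numbers pair. Named were the 10 sites lowest at 27 h, those called at 3 h (up to 5 per experiment and direction), 3 on each side of the threshold, the 3 lowest and 3 highest at 3 h, the 3 with the highest 27 h vehicle level and, chosen after their values were seen, the runs of 4 and chr4:41583973-41585804. Sites and lists were chosen with earlier results of these data known, and the comparison by level was added after values were seen. Planned gene, marker and motif descriptions were not made, since no mm9 annotation was used here. The alternatives were other centring, thresholds, peak filters, merging, summed pileups, other limma settings, a pool block and leaving out each pool.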

Additional observations from a re-analysis of the deposited data

Results flagged for a closer look

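Both TCPOBOP pools lay above both vehicle pools at 3 h, and below them at 27 h as the rule demands, at 48 sites in males and 50 in females. Of all tested regions, 17.7% in males and 17.0% in females had TCPOBOP pools above at 3 h. Among the tested sites this order was thus rarer than among all tested regions. Those among the named sites and the runs of 4 are given here, and no difference between times was tested. At chr11:100652221-100653312 the female 27 h change minus the female 3 h change was -1.73 on the log2 scale. At chr10:79359703-79360874 it was -1.03 in males and -1.93 in females, and at chr8:125219221-125219909 -1.09 in males and -1.32 in females. At chr17:6020630-6021541 it was -1.95 in females, while the male pools overlapped at 3 h. Among the runs it was -0.86 in males at chr11:100608141-100608864, -0.64 in males at chr12:111482726-111483326, -1.12 in females at chr18:11986897-11987930, -1.32 in females at chr6:94449968-94450667 and -0.86 in males at chr6:94550374-94551705. A time is also an experiment here, and 3 of these sites were named for their high 3 h change. The site chr11:100652221-100653312 was named because it was called higher in females at 3 h.

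At 3 sites of the runs the sexes were separated in opposite directions at 3 h. The male change minus the female change was 0.61 at chr11:100608141-100608864, 0.82 at chr12:111482726-111483326 and -1.25 at chr6:94449968-94450667. None of the 3 was called in the limma test of the sex difference.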

How the results depend on the processing

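Without centring 366 sites met the rule, with a threshold of -0.3 1238 and of -0.6 260; without 1 of the 27 h pools 793 to 940, since fewer pools have to be ordered. Uncentred, all tested regions had a median change of 0.11 (male 27 h) and 0.15 (male 3 h), and the male 3 h median of the sites was 0.016, of opposite sign and still below that of all regions. Leaving out a pool gave male medians of -0.17 to -0.09 and female medians of -0.20 to -0.14. Sites called lower in males at 3 h numbered 1 with centring on the 5000 strongest regions, 1 with -0.3, 1 among regions in all 16 lists, and 0 to 3 without a pool; called higher, 1 without centring and 0 to 1 without a pool. In females called lower were 2 with −log10 q of 5 or more, 1 with summed pileups, 2 without a mean trend and 0 to 7 without a pool; called higher, 0 without centring, with the 5000 strongest, with −log10 q of 5 or more, with -0.6 and in all 16 lists, 2 with summed pileups and 0 to 3 without a pool. Sites with pools that did not overlap at 3 h numbered, in males and lower, 53 without centring, 295 with -0.3, 64 with -0.6 and 276 to 322 without a pool (added after the data were seen); in males and higher, 29 with −log10 q of 5 or more, 85, 11 and 113 to 145; in females and lower, 86 without centring, 327, 65 and 286 to 350; in females and higher, 25 without centring, 77, 11 and 106 to 146. Where a threshold or a smaller set of pools changes a count, its construction does so. The site called higher, chr11:100652221-100653312, kept a limma adjusted p under 0.05 without centring (0.0140) and with the 5000 strongest (0.00904), but lay outside the set there. It has a peak in 15 lists, so it is not among the regions in all 16. Otherwise the cause was not tested. Shares of all tested regions that were called, or had pools that do not overlap, are not given for changed centring, filters, pools or limma settings. Nothing about the sites is read from the counts of calls or of ordered pools under these settings. With the pool number as a replicate block, 0 sites were called lower in males and 5 in females, and 0 and 1 higher, and no median moved; deviations of same-numbered pools had correlations of -0.03 to 0.06, so the numbers are not shown to pair the pools. The weakest sites rest on 8 to 22 tags in a pool, and summit pileup gives no count of reads over a region.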

Other observations

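Chromosome X was left out of the rule. Of its 464 regions with a peak in all 8 lists at 27 h, 5 met the same conditions (1.08%), against 3.26% on the autosomes. Over all 23741 autosomal regions 2452 (10.3%) had TCPOBOP pools below vehicle pools in both sexes at 27 h and 2263 (9.53%) above in both, while 397 were below in males and above in females and 471 the reverse.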
